A study of Drosophila melanogaster with 22 samples.

Results

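The positions described here are the 1099 consecutive positions 2901 to 3999 of the forward strand of the cytoplasmic rRNA reference, chosen by their place alone. They were taken to hold the internal spacers, 5.8S and 2S rRNA. The study's own table of rRNA sites did not bear that out, since its 5.8S sites lie at positions 2726 to 2821, its 2S sites at 2877 to 2878 and its 28S sites from 3301 onwards. By that table and by the read coverage described below, the stretch holds the last 2 bases of 2S rRNA, the spacer between 2S and 28S rRNA, and the first 706 positions of 28S rRNA. It is therefore called here the spacer and 28S start, and it holds no base of 5.8S rRNA. Of the 1099 positions, 1014 were listed in at least 1 pair of libraries and 774 in all 11 pairs, of the 8364 positions of the reference listed in any pair and of 4185463 to 6168150 rows listed per pair for the whole transcriptome.

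The samples were heads of 1-day-old virgin Drosophila melanogaster females, with 100 heads pooled per replicate. In Exp 1, 3 samples came from the isogenic w1118 strain, and in Exp 2, 4 came from w1118 and 4 from flies homozygous for RluA-2del-FRT, a deletion of the whole RluA-2 gene. RNA of every sample was selected for poly(A), received an RNA spike-in with 1 pseudouridine, and was divided into a portion treated with the carbodiimide CMC and a portion treated with buffer alone (mock), which gave 11 pairs and 22 libraries. The rRNA read here is thus what came through poly(A) selection, and RNA of fewer cells and less RNA per cell cannot be told apart in such samples.

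In eukaryotes the 18S, 5.8S and 28S rRNAs are cut out of one long precursor, and the spacers between them are removed and degraded. In flies a short 2S rRNA is also separated from 5.8S rRNA, and the spacer studied here lies between 2S and 28S rRNA. Pseudouridine, an isomer of uridine, is a common modified base of rRNA, where H/ACA guide RNAs direct most of it, and RluA-2 belongs to a family of pseudouridine synthases that work without guides. CMC stays bound to pseudouridine and halts reverse transcriptase at the base 3′ of it, so that inserts end 1 position after the modified base.

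The termination ratio is the number of inserts that end at a position as a percent of its coverage, and the termination fold change is the CMC ratio of a pair over its mock ratio, on the log2 scale. The sequences below surround the 10 called positions with the highest mean fold change in w1118, and are shown because the strongest called signals of 28S rRNA in the stretch lie in them. They are DNA letters of the study's site table, 5′ to 3′, with 10 bases on either side of the site, whose base (T for uridine) is in capitals. Sites are numbered from the 5′ edge of 28S rRNA seen in the reads as base 1, and the termination position in the rRNA reference is 1 base after the site.
U30, read at 3324: gactacccccTgaatttaagc
U144, read at 3438: atggcaaatgTgagatgcagt
U154, read at 3448: tgagatgcagTgtatggagcg
U219, read at 3513: atgaggcccgTataacgttaa
U260, read at 3554: caaagagtcgTgttgcttgat
U263, read at 3557: agagtcgtgtTgcttgatagt
U273, read at 3567: tgcttgatagTgcagcactaa
U531, read at 3825: tattagcataTaccaaattta
U578, read at 3872: ccaattaaatTgcttgcattt
U656, read at 3950: gtgcgttaatTtttcggaatt
The windows of U144 and U154 overlap, as do those of U260, U263 and U273, so that these are neighbours on one RNA and not separate regions.

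Coverage fell and rose at 2 sharp edges. The 2S rRNA edge lay after position 2902, where mock coverage ran from 12558 to 174508 and CMC coverage from 2349 to 7278. At position 2903, in the 9 pairs that list it, mock coverage was 7.88 to 15.0% of that at 2902, with a median of 11.3%, and CMC coverage was 26.8 to 67.3%, with a median of 59.9%. The step was thus present in every one of those pairs and was steeper in each mock library than in its CMC partner. The 28S edge lay at position 3294, where nearly every insert that reached the base ended there. In the mock libraries 96.8% ± 0.115 (SD, n = 3) of the coverage terminated at 3294 in w1118 Exp 1, 96.9% ± 0.300 (SD, n = 4) in w1118 Exp 2 and 97.0% ± 0.222 (SD, n = 4) in RluA-2. The CMC libraries gave 97.0% ± 0.200, 97.0% ± 0.171 and 97.1% ± 0.129. The mean fold change at 3294 was 0.00 in all groups, and the widest 95% Wilson interval of a single library, which covers counting error only, was 96.9 to 97.4%. An exact two-sided permutation test gave p = 1.0 for the mock and p = 0.657 for the CMC ratio between RluA-2 and w1118 of Exp 2. These edges leave 391 spacer positions, against 385 bases between the 2S and 28S genes of the Release 6 annotation, in both copies where the pair is annotated. That length would put the first base of 28S rRNA at 3288, 6 positions before the edge in the reads.

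Among inserts that ran across 3294, further stops lay upstream of it. The 5 positions with the highest mock ratio in w1118 Exp 2 were 3294 itself, 3290, 3293, 3291 and 3266. At 3290 the mock ratio was 70.3% ± 1.24 in w1118 Exp 2 and 71.7% ± 3.20 in RluA-2 (SD, n = 4 each), and at 3293 it was 45.2% ± 5.21 and 44.0% ± 3.97. At 3291 it was 39.8% ± 4.23 and 41.0% ± 2.75. Position 3266 stood at 32.9% ± 7.99 and 29.8% ± 5.54, from a mock coverage of only 40 to 105. The genotypes overlapped at each of these positions, and at 3290, 3291 and 3293 the mean fold changes of the 3 groups lay between -0.29 and 0.16. Of these 5, only 3293 was called by the test described below, in 1 pair of w1118.

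At the base just upstream of the edge, mock coverage was 1232 to 3101, against 40030 to 107007 at the edge. CMC coverage was 636 to 2154 there, against 22393 to 76755. Coverage 5 to 14 bases upstream leaves out inserts that crossed the edge and stopped nearer to it. It may also hold inserts that lie wholly in the spacer, so it is not the share that ran across. This coverage 5 to 14 bases upstream was a small share of that at the edge. Mock libraries had 0.223% ± 0.0987 in w1118 Exp 1, 0.181% ± 0.0331 in w1118 Exp 2 and 0.190% ± 0.0398 in RluA-2, and CMC libraries had 0.226% ± 0.0348, 0.261% ± 0.0400 and 0.251% ± 0.0293. RluA-2 and w1118 of Exp 2 did not differ beyond the spread between libraries (exact permutation p = 0.743 in mock and 0.714 in CMC libraries, two-sided). The window was chosen after the profile was seen.

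**Figure D1:**
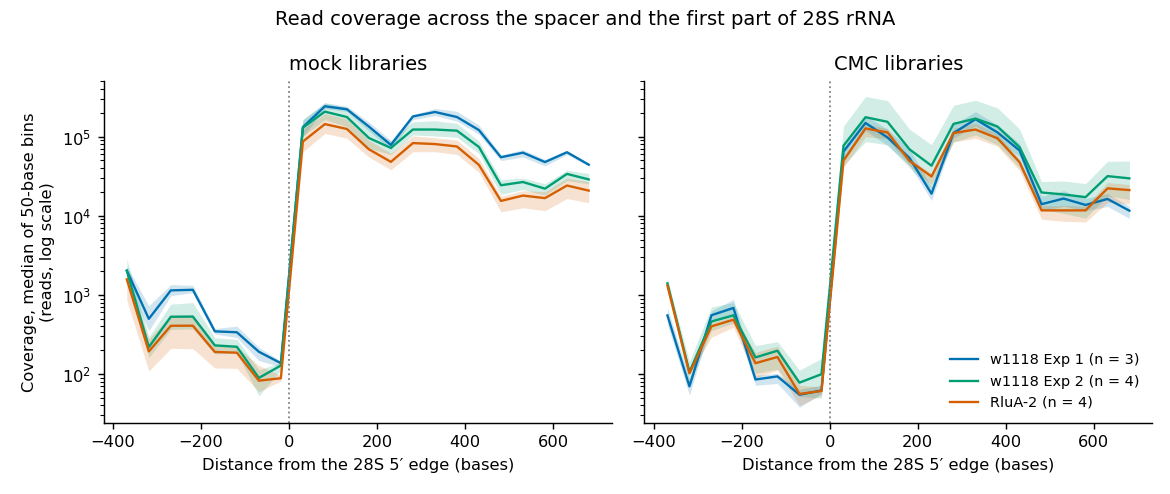
Median coverage (reads, log scale) in bins of 50 positions against the distance in bases from the 28S 5′ edge, for mock libraries on the left and CMC libraries on the right; lines are group means and bands run from the lowest to the highest library. At the edge (dotted) coverage rises from 49.5 to 157 reads in the last bin before 3301 to 41000 or more in the next, over all 22 libraries.

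Within the spacer, mock coverage in w1118 Exp 2 fell to 219 ± 56.5 reads in the bin 2951 to 3000, rose to 529 ± 183 in 3001 to 3050 and 532 ± 193 in 3051 to 3100, and was 89.2 ± 25.5 in 3201 to 3250 (mean of library medians ± SD, n = 4). The corresponding values were 193 ± 68.3, 407 ± 144, 408 ± 146 and 82.4 ± 31.8 in RluA-2 (n = 4). In w1118 Exp 1 they were 498 ± 202, 1140 ± 192, 1160 ± 136 and 191 ± 38.0 (n = 3). Each group thus had a bump of coverage between 3001 and 3100, and in that bump the mock libraries of Exp 1 lay above all 8 of Exp 2. In 28S rRNA, mock coverage of the bin 3351 to 3400 was 242000 ± 23800, 207000 ± 42600 and 144000 ± 39000 in w1118 Exp 1, w1118 Exp 2 and RluA-2. Among positions listed in all pairs, mock coverage was highest at 3388, with 115627 to 288552 reads, and lowest in 28S rRNA at 3764, with 6292 to 30931. Before the first tabulated 28S site it was lowest at 3266 and highest at 3300, with 49546 to 129469, a position that lies inside 28S rRNA by the edge.

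Coverage of 28S rRNA fell again towards the end of the stretch. The median over positions 3750 to 3999 was 28.9% ± 1.75 (SD, n = 3) of that over positions 3301 to 3700 in the mock libraries of w1118 Exp 1. It was 20.8% ± 2.38 in w1118 Exp 2 and 22.2% ± 5.40 in RluA-2 (SD, n = 4 each). The 3 mock libraries of Exp 1, at 27.1 to 30.7%, all lay above the 4 w1118 ones of Exp 2, at 17.9 to 23.5%, and the exact permutation p of 0.0286 is the smallest that 3 against 4 libraries can give. In CMC libraries the shares were 14.1% ± 0.430, 17.1% ± 4.26 and 14.9% ± 1.05, and the experiments overlapped (exact permutation p = 0.371). RluA-2 and w1118 Exp 2 overlapped in both treatments (exact permutation p = 0.8 in mock and 0.429 in CMC libraries). This measure was chosen after its values were seen.

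To ask whether the mutant holds more or less spacer relative to mature 28S rRNA, the mean coverage before 3301 was divided by that from 3301 on. In mock libraries the ratio ran from 3.79 to 4.18% in w1118 Exp 1, from 3.77 to 7.31% in w1118 Exp 2 and from 4.50 to 5.75% in RluA-2, so that the groups overlapped except for Exp 1 against RluA-2. On the log2 scale RluA-2 and w1118 of Exp 2 had means of -4.28 ± 0.16 and -4.31 ± 0.42, a difference of 0.03 (exact two-sided permutation p = 0.886, n = 4 each). With medians in place of means the difference was 0.61 (exact permutation p = 0.143). In CMC libraries the means were -5.23 ± 0.14 and -5.22 ± 0.19, a difference of -0.01 (exact permutation p = 0.857). Mock libraries of w1118 Exp 1 differed from those of Exp 2 by -0.34 (exact permutation p = 0.286, n = 3 and 4), which turned to 0.63 with medians (exact permutation p = 0.143). No exact permutation test on 4 against 4 libraries can go below p = 0.0286.

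That block includes the 2S bases 2901 and 2902 and the 28S bases 3294 to 3300. Mean coverage of the block in mock libraries was 2070 to 6430 with them. It was 214 to 983 without them and without the recognized rows of the second series. Between the edges alone, and without the second series of rows described below, the spacer stood at 0.451 to 0.835% of 28S coverage in mock libraries of w1118 Exp 1, at 0.353 to 0.735% in w1118 Exp 2 and at 0.464 to 0.971% in RluA-2. RluA-2 then exceeded w1118 of Exp 2 by 0.22 on the log2 scale in mock libraries (exact permutation p = 0.457) and by 0.21 in CMC libraries (p = 0.629 in the exact permutation test), in both cases with overlapping libraries.

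CMC libraries had less coverage before 28S rRNA than their mock partners. Over the 7 w1118 pairs the mean log2 ratio was -5.33 ± 0.20 in CMC and -4.45 ± 0.35 in mock libraries, a difference of -0.88 that was negative in 7 of 7 pairs, and its p of 0.0156 is the smallest that the exact test over the signs of 7 pairs can give. The difference was -0.36 between the edges, negative in 6 of 7 pairs (exact test over signs, p = 0.0312), and -0.28 with medians in place of means (exact p = 0.484). Positions without a CMC termination are not listed, so that thinly covered spacer positions are left out of these averages, and between 164 and 231 of the 391 spacer positions were listed per pair.

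**Figure D2:**
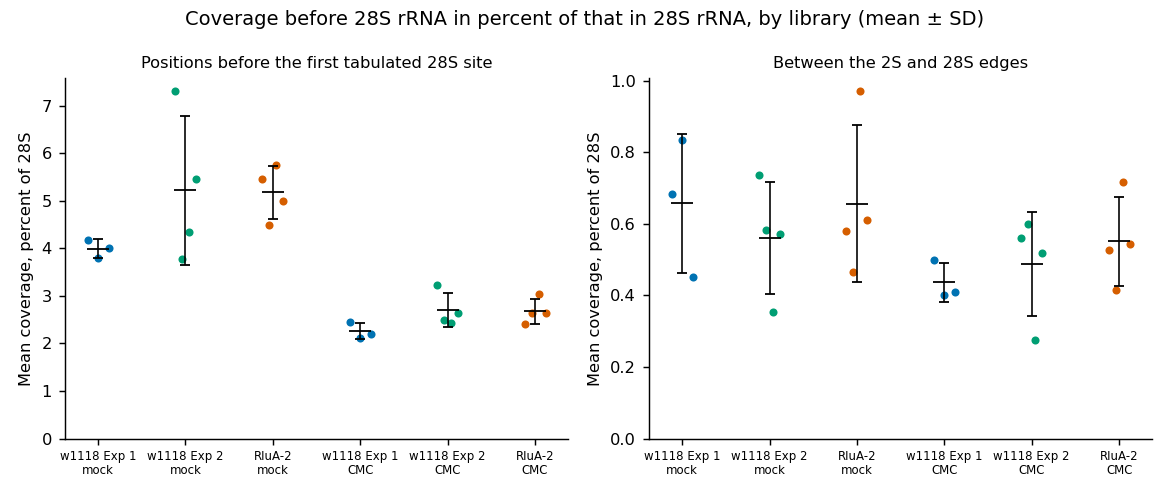
Mean coverage before 28S rRNA in percent of the mean coverage in 28S rRNA, for each library (points) with group mean and SD, by group and treatment. The left panel takes all positions before 3301 and the right panel the spacer between the edges; on the right all libraries lie under 1% and the 3 groups overlap in both treatments.

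Relative to all terminations on the rRNA reference, coverage of the whole stretch overlapped between the genotypes. Mean coverage per 1000000 rRNA terminations ran from 3410 to 4890 in mock libraries of w1118 Exp 2 and from 3500 to 3870 in RluA-2, a log2 difference of -0.08 (exact permutation p = 0.686). In CMC libraries it ran from 5070 to 6830 and from 5540 to 5910, a difference of 0.01 (p = 1.0 in the exact permutation test). Mock libraries of w1118 Exp 1 had 5690 to 6320, above every mock library of Exp 2. Their CMC partners had 6690 to 8770, which overlapped the CMC libraries of w1118 Exp 2.

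Called positions were then sought in each pair with a one-sided test of the CMC against the mock proportion of reads, which compares 2 libraries and not conditions, adjusted by the Benjamini-Hochberg method over the whole transcriptome. A position was taken as called in w1118 if both experiments had a pair with an adjusted p under 0.05. In the stretch 110 of 682 tested positions were called, 16.1% (95% Wilson interval 13.6 to 19.1%), against a background of 0.494% of all positions tested. The count was 517 with a pooled variance and 48 with the lower of 2 rows kept. No share over all positions was computed under these alternatives, so the counts show only that the calls depend on the setting. The share was 40.3% (37.6 to 43.0%) in 18S rRNA, 66.7% (56.8 to 75.3%) in 5.8S rRNA, 33.3% (31.3 to 35.3%) in the rest of 28S rRNA and 10.7% (3.71 to 27.2%) in 2S rRNA, whose interval overlapped that of the stretch. Of the 110 positions, 57 were called in all 7 w1118 pairs, 81 in 6 or 7, 24 in 4 or 5 and 5 in 2 or 3. When reads were drawn down to 1000 at each position, 3 were called, likewise without a share over all positions. Coverage was not matched between the stretch, the background and the other rRNAs, so their shares are a description only.

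The calls lay in 28S rRNA. There 109 of 583 tested positions were called, 18.7% (15.7 to 22.1%), and in the spacer 1 of 98, 1.02% (0.18 to 5.56%). The single spacer position was 2991, 303 bases before the 28S edge. Its CMC ratio was 57.6% ± 10.4 and its mock ratio 14.2% ± 3.18 in w1118 Exp 2 (SD, n = 4), 65.6% ± 10.7 and 42.4% ± 14.8 in Exp 1 (n = 3), and 47.5% ± 18.1 and 11.1% ± 4.88 in RluA-2 (n = 4). CMC coverage there was 21 to 70 reads, the base was not known here, and the position was called in 3 of 7 w1118 pairs and 1 of 4 RluA-2 pairs. The share of calls in the spacer cannot be set against that of 28S rRNA. The variance of the test holds the inverse of mock coverage, so a call at thin coverage needs a larger difference of the ratios. How far coverage accounts for the few calls in the spacer was not tested. Median mock coverage before the first tabulated 28S site was 198 to 644 reads in the w1118 libraries. At such coverage a difference of the size of the median spacer ratio is too small for a call. No conclusion on the spacer RNA is drawn from its 1 call. The median ratio of the spacer was in fact higher than that of 28S rRNA, at 2.38% ± 0.445 in CMC and 1.40% ± 0.204 in mock libraries of w1118 Exp 2, against 0.850% ± 0.0926 and 0.603% ± 0.0568 (SD, n = 4), and only positions with at least 1 CMC termination enter it. Median fold changes of the spacer were 1.33 ± 0.18 in w1118 Exp 1, 0.75 ± 0.14 in w1118 Exp 2 and 0.89 ± 0.19 in RluA-2, over positions that are listed only with a CMC termination.

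Within 28S rRNA the called positions were unevenly spread. Of the first 100 sites 25 were called, of sites 101 to 200 there were 8, of sites 201 to 300 there were 40, and each later 100 held 7 to 11. Sites 201 to 300 had 89 tested positions, close to the 91 of the first 100, and 23 of their 40 calls were at uridines. These counts were not adjusted for coverage, on which calls depend, since 3 were left with coverage thinned to 1000. Median mock coverage late in the stretch was 28.9% of the earlier level in w1118 Exp 1 and 20.8% in w1118 Exp 2. How far coverage shapes the spread of calls was not tested, so the counts are a description only.

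Which base lay at the site was known where a flank of the study's site table covers it, for 484 of the 1099 positions, and the table's own sites are uridines that had to be called in these same w1118 libraries. Of the 77 called uridines 65 are such sites, so that the choice of known positions itself raises the share of calls at uridines, and the shares below are a description that sets no base against another. Uridines had 77 calls among 151 tested, 51.0% (43.1 to 58.8%). Guanines had 15 of 97, 15.5% (9.60 to 24.0%), adenines 10 of 129, 7.75% (4.26 to 13.7%), cytosines 3 of 49, 6.12% (2.10 to 16.5%), and positions of unknown base 5 of 256, 1.95% (0.837 to 4.49%). The base was known at 105 called positions, and 73.3% (64.2 to 80.9%) of these were uridines, and 63 of the 77 uridines were called in 6 or 7 pairs. The 3 called cytosines, named after their values were seen, were sites 217, 224 and 265, with mean w1118 fold changes of 0.81, 0.52 and 0.44.

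By the same choice, fold changes of uridines are favoured, and their medians are given as a description. Median fold changes over the 150 uridines of the 28S positions listed in all pairs were 1.37, 1.03 and 1.19 in w1118 Exp 1, w1118 Exp 2 and RluA-2. Over 101 guanines they were 0.70, 0.74 and 0.74, over 157 adenines 0.06, 0.37 and 0.40, and over 68 cytosines -0.05, 0.17 and 0.25. In w1118 Exp 2 the fold change was above 1 at 79 uridines, 25 guanines, 9 adenines and 3 cytosines. The order of the bases, uridine first and guanine second, was found in all 11 pairs of these chosen positions.

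**Figure D3:**
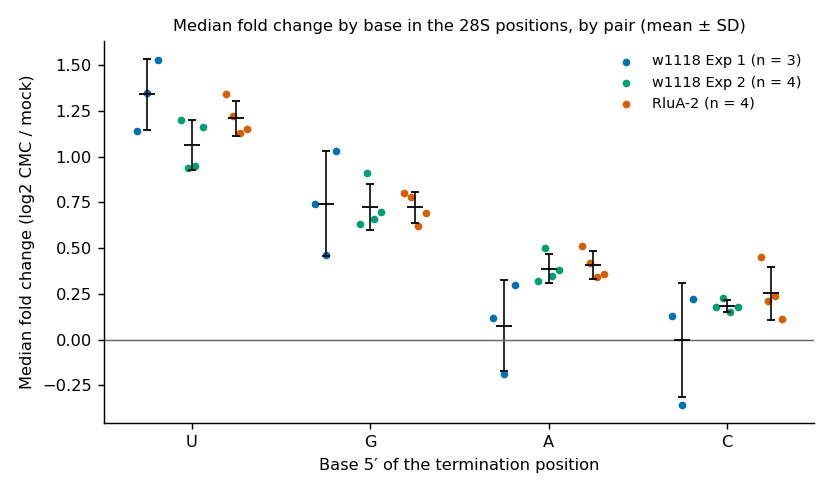
Median termination fold change (log2 CMC over mock) of the 28S positions by the base 5′ of the termination position, 1 point per pair with the group mean and SD. Uridine is highest in every pair, at 0.94 to 1.53, and adenine and cytosine are lowest, among positions whose base is known because a uridine called in w1118 lies at or near them.

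The gap between uridine and adenine was wider in Exp 1. It was 1.02, 1.54 and 1.24 in the 3 pairs of Exp 1 and 0.44 to 0.87 in the 4 w1118 pairs of Exp 2, without overlap, while the RluA-2 pairs had 0.79 to 0.84. This was seen in the data and is given without a test.

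The strongest called position was U531. Its CMC ratio was 6.62, 8.10 and 7.31% in the 3 pairs of w1118 Exp 1, 4.04, 5.35, 4.09 and 4.47% in w1118 Exp 2, and 5.07, 6.33, 5.72 and 5.69% in RluA-2. The mock ratio was 0.505, 0.559 and 0.481% in Exp 1, 0.317, 0.346, 0.370 and 0.228% in w1118 Exp 2, and 0.370, 0.357, 0.300 and 0.262% in RluA-2. Every CMC library thus stood more than 10 times above its mock partner. The fold change was 3.83 ± 0.11 in Exp 1, 3.84 ± 0.36 in w1118 Exp 2 and 4.15 ± 0.28 in RluA-2 (SD, n = 3, 4 and 4), and the position was called in all 11 pairs. Coverage there was 8657 to 27846 in CMC and 12599 to 68654 in mock libraries.

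A group of uridines held fold changes between 2 and 3 in all groups. U30 had 2.43 ± 0.21 in Exp 1, 2.54 ± 0.30 in w1118 Exp 2 and 2.72 ± 0.38 in RluA-2, from CMC ratios of only 1.63 to 3.39% in single libraries. U260 had 2.36 ± 0.22, 2.41 ± 0.24 and 2.40 ± 0.17, with CMC ratios of 8.03% ± 1.18, 6.03% ± 0.637 and 5.84% ± 0.355. U263, 3 bases on, had 2.24 ± 0.12, 2.26 ± 0.31 and 2.17 ± 0.20. U578 had 2.26 ± 0.34, 2.27 ± 0.22 and 2.54 ± 0.14. These 4 were called in all 11 pairs, and their groups overlapped. U656 had 1.84 ± 0.35, 2.30 ± 0.15 and 2.21 ± 0.07, and was also called in all 11.

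The values at several of the 10 uridines rested on the choice of row. Between 146 and 358 positions of the stretch had 2 rows in a pair, and the row with the higher count was kept. The other rows lay near one constant coverage in each library, 3267 to 11336 in CMC and 5829 to 15992 in mock libraries. Kept rows within 25% of that level and more than 1.5-fold from the coverage of their neighbours numbered 0 to 4 per library. Where the neighbours were themselves covered near that level, kept rows of the second series could not be recognized. With the lower row kept, the fitted fold changes of U260 (position 3554) and U263 (position 3557) in Exp 1 were -0.17 and -0.37. The call against 0 was also lost in Exp 1 at U144 (position 3438, 0.89), U154 (position 3448, 0.53) and U219 (position 3513, 0.47), in w1118 Exp 2 at U260 (0.32), U263 (1.03) and U273 (position 3567, 0.84), and in RluA-2 at U154 (1.19).

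U219 had the highest CMC ratio of the 10, at 22.4% ± 6.21, 19.4% ± 2.20 and 20.5% ± 1.88 in w1118 Exp 1, w1118 Exp 2 and RluA-2. Its mock ratio was 3.64 to 4.42% in 10 pairs and 13.3% in w1118 Exp 2 replicate 2, whose fold change of 0.61 lay below the 2.05 to 2.71 of the others. The mean fold change of w1118 Exp 2 was 1.81 ± 0.80, and 2.21 in the fit without that pair.

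At 3 uridines Exp 1 stood above Exp 2. U154 had a fold change of 2.79 ± 0.56 in Exp 1, 1.33 ± 0.29 in w1118 Exp 2 and 1.34 ± 0.17 in RluA-2, without overlap between the experiments. U273 had 2.44 ± 0.07, 1.61 ± 0.34 and 1.65 ± 0.21, also without overlap. U144 had 2.56 ± 0.37, 1.93 ± 0.27 and 1.87 ± 0.29, with overlap. In the fit across all positions the adjusted p of these differences was 0.375, 0.477 and 0.581 (limma).

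**Figure D4:**
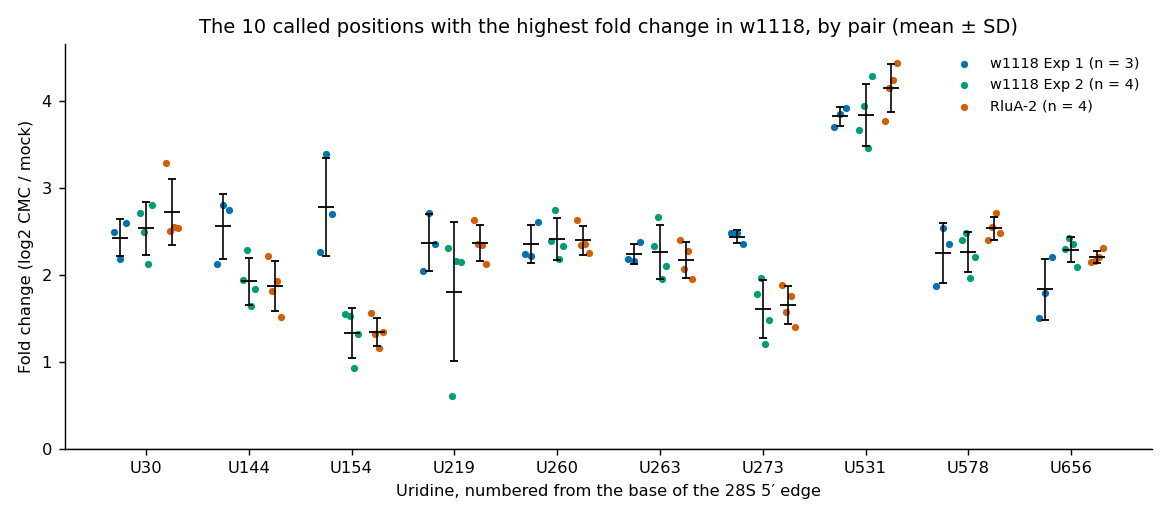
Termination fold change (log2 CMC over mock) of the 10 uridines with the highest mean in w1118 among called positions, 1 point per pair with the group mean and SD. U531 stands above the others in every pair, U219 has 1 low w1118 Exp 2 pair at 0.61, and at U154 and U273 the Exp 1 pairs lie above both groups of Exp 2.

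A high fold change did not suffice for a call under the variance used here. Its mock term is the inverse of mock coverage whatever the ratio, so that a call needs a large difference of the ratios themselves. Among positions listed in all pairs, 8 called and 13 uncalled ones had a mean w1118 fold change above 2. The highest of all, 4.84 ± 1.16 (SD, n = 7), was at 2902, the last base of 2S rRNA, where the listed CMC counts were 4 to 9 of a coverage of 3177 to 7278, against mock counts of 1 to 10 of 27531 to 174508. The lowest count listed anywhere was 2 in CMC and 1 in mock libraries, so the listed counts may hold an added 1, which was not settled and bears most on counts as low as these. Others lay next to U531, at sites 532, 533 and 534, with 2.11 ± 0.54, 2.14 ± 0.88 and 2.14 ± 0.50, and CMC ratios of 1.19, 0.107 and 0.0517%. The 3 uridines among the 13 lay at 3403, 3695 and 3784, with 2.03 ± 0.46, 2.01 ± 0.27 and 2.16 ± 0.22, and their lowest CMC counts were 826, 812 and 163. A run of 5 lay at sites 186 to 195, read at 3480 to 3489, with means of 2.09 to 3.06, SDs of 0.85 to 1.72 and CMC ratios of 0.122 to 0.511%. The experiments differed there. At 3481, 3487, 3488 and 3489 the fold change was 3.52 to 4.28 in Exp 1, 1.03 to 2.25 in w1118 Exp 2 and 0.33 to 2.04 in RluA-2. These positions were picked for their values, and their calls with a pooled variance are not given.

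**Figure D5:**
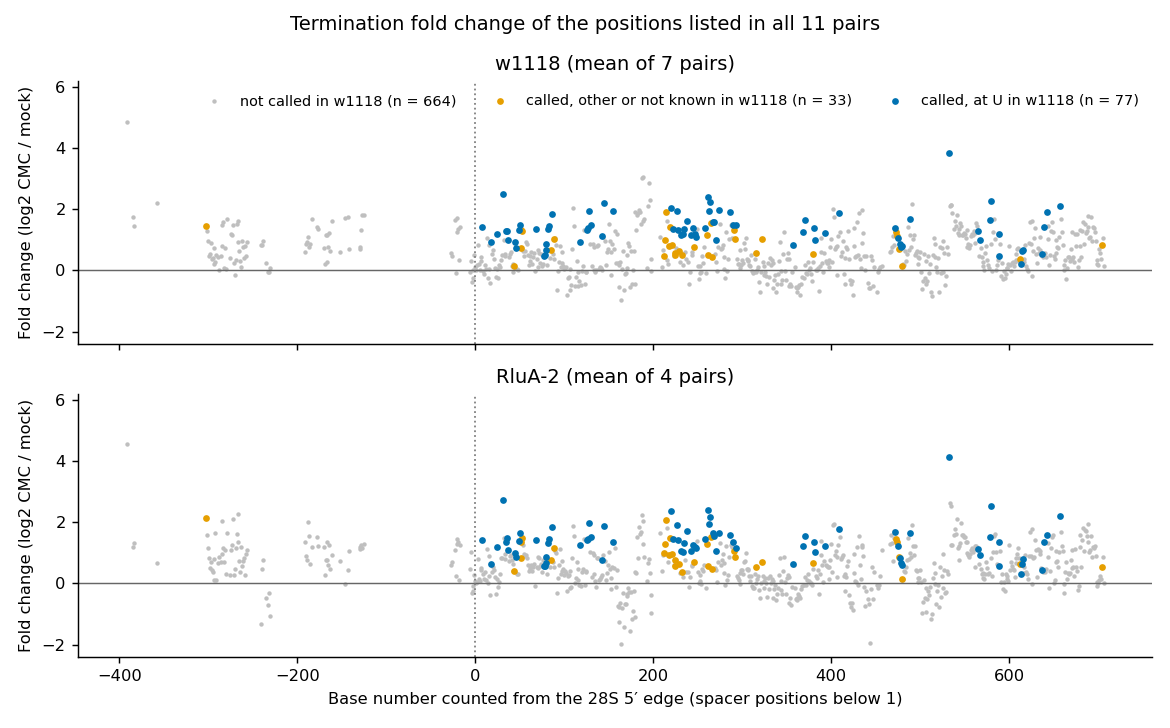
Mean termination fold change (log2 CMC over mock) of each position listed in all 11 pairs against the number of the termination base from the 28S 5′ edge, for w1118 above and RluA-2 below, with positions called in w1118 in blue at uridines and in orange at other or unknown bases. Of the 110 called positions 77 are at uridines, and all but 1 lie right of the edge.

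For a test across replicates, fold changes as listed, with no pseudocount, of all 383763 positions with a coverage of at least 100 in all 22 libraries and a row in all 11 pairs were fitted with limma. The stretch had 727 such positions, 48 of them before 3294. A row requires a termination in the CMC library, with no such requirement for the mock library, which favours fold changes above 0, so that the counts against 0 are a description. Against 0, the fold change was higher at an adjusted p under 0.05 at 294 positions in w1118 Exp 1, 304 in w1118 Exp 2 and 321 in RluA-2, that is 40.4, 41.8 and 44.2%, beside 36.3, 35.9 and 33.4% of all positions fitted. It was lower at 16, 15 and 23 positions, beside 2.78, 1.34 and 1.38% of all. The median over the stretch was 0.54, 0.53 and 0.55, and over all positions 0.66, 0.62 and 0.57. With each pair centred on its own median, 133, 83 and 113 positions of the stretch were higher and 171, 93 and 96 lower, beside 62508, 38714 and 42497 higher and 51527, 31501 and 30883 lower of all 383763. In RluA-2, whose pairs had no part in the choice of the 10 uridines, their fitted values were 1.34 to 4.15 and the adjusted p-values no higher than 0.000959 (limma).

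In RluA-2, 80 of 655 tested positions of the stretch were called in at least 2 of the 4 pairs, 12.2% (95% Wilson interval 9.92 to 14.9%). The background was 0.305% of all positions, whose coverage was not matched to that of the stretch. With a pooled variance 445 were called and with the lower row 34, again without a share over all positions. All 80 lay in 28S rRNA and 59 were at uridines. Of the 110 positions called in w1118, 78 were among the 80, 60 were called in all 4 RluA-2 pairs, 20 in 1 and 12 in none. The same shares over the 2841 positions called in w1118 on all references were not computed. The other 2 of the 80, named after their values were seen, were sites 216 and 229. They were called in 3 of 7 w1118 pairs each but not in both experiments. Their RluA-2 fold changes were 0.71 ± 0.35 and 0.35 ± 0.12 and their w1118 fold changes 0.21 ± 0.68 and 0.26 ± 0.42. Calls per pair ran from 70 to 107 in RluA-2, 89 to 99 in w1118 Exp 2 and 128 to 207 in w1118 Exp 1, and w1118 had 7 pairs in which to be called against 4, so the counts of the genotypes are not set against each other. Of all positions tested, the pairs of w1118 Exp 1 called 0.527, 1.13 and 0.864%, those of w1118 Exp 2 called 0.537, 0.305, 0.28 and 0.347%, and those of RluA-2 called 0.446, 0.22, 0.324 and 0.258%.

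The 12 positions called in no RluA-2 pair had fold changes of like size in both genotypes of Exp 2. Their mean fold changes were 0.23 to 1.96 in w1118 Exp 2 and 0.37 to 1.79 in RluA-2, and the differences lay between -0.17 and 0.31 with standard errors of 0.27 to 0.33. The adjusted p of each was 0.991 or above (limma). The highest of them was at 3702, with 1.96 in w1118 Exp 2 and 1.79 in RluA-2, a difference of -0.17 ± 0.32 (SE). Each of the 12 differences was smaller than its standard error, which does not show that the genotypes are alike.

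Between RluA-2 and w1118 of Exp 2, no fold change of the stretch differed at an adjusted p under 0.05, and the background was 0% in either direction (limma, 4 pairs each). At an unadjusted p under 0.05 there were 12 of 727, for which no share over all positions was computed, and the lowest adjusted p was 0.963. The median difference was 0.02 with a median standard error of 0.30. In simulated positions a shift of -1 was called at 1 of 50 and a shift of -2 at 19 of 50. The absence of calls therefore does not show that differences of that size are absent. At U531 the difference was 0.31 ± 0.32 (SE), at U30 0.19 ± 0.32, at U219 0.56 ± 0.41 and at the other 7 uridines between -0.09 and 0.27, with standard errors of 0.27 to 0.31.

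The 3 positions with the lowest p were not called positions in any pair. At 3736 the fold change was -0.14, 0.41, -0.36 and -1.08 in the 4 w1118 pairs of Exp 2 and -1.93, -1.91, -1.92 and -1.98 in RluA-2, a difference of -1.64 ± 0.35 (SE). The groups did not overlap, and RluA-2 had listed CMC counts of 5 to 7. At 3491 it was 1.37, 0.91, 0.47 and -0.14 in w1118 and -1.82, -0.45, -0.64 and -0.92 in RluA-2, a difference of -1.61 ± 0.43 with listed CMC counts of 2 to 4 in the mutant. At 3878 RluA-2 was higher, with 0.71 to 1.52 against -0.07 to 0.12, a difference of 0.97 ± 0.30. The unadjusted p at 3736 was 0.000814 and the adjusted p was 0.963 at each position (limma), and no ratio there was above 0.109% in the libraries of Exp 2.

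The mock ratio, which reads stops without CMC, gave no call in the stretch either, beside 0.0414% of all positions higher and 0.0328% lower in RluA-2. The median difference was -0.12, against -0.01 over all positions. An unadjusted p under 0.05 was found at 19 of 727, a count without its share over all positions. The lowest p was at 3972, where the mock ratio was 0.0492% ± 0.00468 in w1118 Exp 2 and 0.0265% ± 0.00463 in RluA-2, a log2 difference of -0.90 ± 0.21 (SE, adjusted p = 0.437, limma), without overlap. Next came 3864, with 0.937% ± 0.242 and 0.534% ± 0.0233 and a difference of -0.78 ± 0.23 (adjusted p = 0.613, limma). At the spacer position 3009 the ratio was 3.16% ± 0.415 and 1.96% ± 0.342, a difference of -0.70 ± 0.22 (adjusted p = 0.641, limma), and its CMC ratio was 7.27% ± 1.10 and 8.16% ± 1.41. The CMC ratio gave no call in the stretch, beside 0.0537% of all positions higher and 0.0732% lower. Its lowest adjusted p was 0.276 (limma), and 15 positions had an unadjusted p under 0.05, also without a share over all positions.

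Between the experiments, no fold change of w1118 differed at an adjusted p under 0.05 in the stretch, where the background was 0% in both directions (limma, 3 and 4 pairs). At an unadjusted p under 0.05 there were 65 of 727, and the lowest adjusted p was 0.375. The share over all positions at that unadjusted threshold was not computed, so the 65 are not read as an excess in the stretch. Fitted on the 5964 positions of the rRNA reference alone, 18 were higher and 7 lower in Exp 1, beside 205 higher and 43 lower of the 5964. Among the positions with a difference above 1.5 and an unadjusted p under 0.05, all but 1 lay between 3450 and 3489. At 3489 the fold change was 3.97 in Exp 1, 1.05 in w1118 Exp 2 and 0.33 in RluA-2, a difference of 2.92 ± 0.54 (SE, adjusted p = 0.375, limma). The CMC ratio there was 0.211, 0.0551 and 0.0391%, and the mock ratio 0.0128, 0.0240 and 0.0308%, so that both moved. These positions were named after their values were seen. Age, sex and strain are the same in both experiments by the labels, and what else differed between them was not tested.

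As a check of the labels, the span of RluA-2 held 99 to 159 CMC terminations in w1118 Exp 2, 102 to 156 in w1118 Exp 1 and 12 to 40 in RluA-2, or 5.12 to 7.53, 7.59 to 9.18 and 0.604 to 1.91 per 1000000 gene counts. Head markers were present in all CMC libraries, the only ones read for this check. The main opsin of the eye, ninaE, stood at 10600 to 14700 per 1000000 and the neuronal gene elav at 57.0 to 114 per 1000000. The glial marker repo was lower in w1118 Exp 1, at 34.7 to 39.6 per 1000000, than in w1118 Exp 2, at 46.8 to 51.4, and RluA-2, at 50.1 to 57.3, and its part in the differences between the experiments was not tested. Terminations in osk, alphaTry and bam, which mark oocytes, gut and early germ cells, were 0 to 4, and the flight muscle actin Act88F stood at 13.3 to 23.8 per 1000000. The germ line gene vas had 3139 to 4729 terminations, in a span that overlaps the genes solo and vig. Total gene counts ran from 12035142 to 30701799, and rRNA terminations from 9539685 to 20884957 in mock and 5394166 to 16232136 in CMC libraries.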

How the data were processed

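Psi-seq libraries were read from the termination files, in which the authors deposited for each position a termination count, the coverage signal and the termination ratio as a fraction, without further normalization. Per the labels and the paper's methods, reads were trimmed with Trimmomatic 0.33, aligned with Bowtie2 to the rRNA reference, the rest with STAR 2.6.1a to the genome, and counted per gene with featureCounts 2.0.0, and these deposited gene counts are raw. The lowest listed count was 2 in CMC and 1 in mock libraries, so that an added 1 may be included. Counts were used as listed, with 1 subtracted as an alternative. Only in the totals of rRNA terminations was 1 subtracted from each count throughout.

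The row with the higher termination count was kept for a position with 2 rows. The test of proportions, a z-test on reads, used the pooled ratio p with the variance p(1-p)/CMC coverage plus the inverse of mock coverage. An earlier analysis of these data found the listed values to follow that form. At least 5 CMC inserts terminating and 5 continuing were required, and the test was checked on simulated data. For limma, 20000 positions were simulated with the spread of the pairs of Exp 2. Of 50 positions each, shifts of -1, -2, -3 and -4 in RluA-2 on the log2 scale were called at 1, 19, 38 and 43. The limma fits covered 383763 positions. Single values were compared by exact permutation. The positions named by rule were the 10 called ones with the highest w1118 fold change, called ones before 28S, the 5 highest mock ratios, the 3 lowest p by genotype in fold change and in mock ratio, and the extremes of coverage. The members and lists were chosen with earlier results of these data known. The alternatives varied the variance, thresholds, thinning, centring, rows kept, block edges, the replicate block and each pair left out. Groups came from the labels, each replicate being a pool of heads. The p-values of limma and of the permutation tests measure the spread between these pools. Those of the z-test, and the calls made with it, compare the reads of 2 libraries and measure no such spread. No rRNA sequence or annotation of this reference was used beyond the site table. Python 3.11, SciPy 1.17.1, R 4.3.3 and limma 3.58.1 were used.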

Additional observations from a re-analysis of the deposited data

Results flagged for a closer look

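Of 188 sets of 4 values checked, 9 held a value whose gap to the nearest of the others exceeded 0.829 of the whole range, and chance alone gives about 1 in 20. At U219 (position 3513), w1118 Exp 2 replicate 2 had a mock ratio of 13.3% and a fold change of 0.61, far from the other pairs. In RluA-2 replicate 1, 107 positions were called against 70 to 74 in the other mutant pairs. The same pair stood apart at U30 (3324) with a fold change of 3.29, at U263 (3557) with a CMC ratio of 7.01% and at U273 (3567) with a CMC ratio of 3.59%. At 3557, w1118 Exp 2 replicate 2 had a mock ratio of 1.08%. At 3972, w1118 Exp 2 replicate 3 had a fold change of 0.38. At the 28S edge, 3294, RluA-2 replicate 3 had a fold change of 0.01, beside 0.00 in the mean of each group.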

How the results depend on the processing

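The fold changes of the 10 uridines against 0 kept their direction and their side of the threshold under 531 of 540 alternatives, lost significance under 7 and reversed under 2, at U260 (-0.17) and U263 (-0.37) in Exp 1 with the lower of 2 rows kept. Called positions numbered 517 in w1118 and 445 in RluA-2 with a pooled variance, 3 and 1 with coverage thinned to 1000, and 48 and 34 with the lower row kept, and 102 to 110 and 71 to 79 with each pair left out. The share called over all positions was not computed under these settings. Positions above 0 in Exp 1, w1118 Exp 2 and RluA-2 numbered 133, 83 and 113 after centring (62508, 38714 and 42497 of all) and 218 to 297, 230 to 314 and 238 to 335 with each pair left out. Positions below 0 numbered 171, 93 and 96 after centring (51527, 31501 and 30883 of all). On rRNA alone they numbered 62, 40 and 50, beside 1080, 1183 and 1173 of all 5964. With a variance trend on coverage, which was added after the data were seen, they numbered 60, 39 and 48 (11691, 5955 and 5702 of all 383763). At a coverage of at least 1000 they numbered 44, 34 and 42, given without a share over all positions. With the lower row they were 8 in w1118 Exp 2 and 15 in RluA-2, also without that share. With each pair left out, 6 to 20, 7 to 17 and 12 to 26 lay below 0, likewise without that share. The lowest of these came without Exp 1 replicate 2 (6), w1118 Exp 2 replicates 4 (7) and 1 (9), and RluA-2 replicates 1 (12) and 3 (13).

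Between the experiments 18 positions were higher and 7 lower on rRNA alone, beside 205 and 43 of all 5964, and 2 higher with the variance trend, beside 25 higher and 5 lower of all 383763. Between the genotypes the mock and the CMC ratio each had 1 position lower with the trend, beside 260 and 461 lower of all 383763. With the lower row each had 2 positions higher, for which no share over all positions is given. The cause of these changes was not tested.

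The spacer to 28S ratio of RluA-2 against w1118 in mock libraries, 0.03, turned to -0.10 with 50 positions left out on either side, -0.08 with the reference boundary, -0.06 with positions listed in all libraries and -0.32 with the lower row (-0.11 to 0.21 with each pair left out). In CMC libraries, -0.01 turned to 0.35 with medians, 0.13 with 50 positions left out, 0.15 with the reference boundary, 0.22 with the edges seen and 0.21 without the second series (-0.07 to 0.08). Exp 1 against Exp 2, -0.34, turned to 0.63, 0.48, 0.53, 0.13 and 0.23 under these 5 (-0.48 to -0.16). CMC against mock fell by 0.28 with medians, exact p = 0.484, and lay between -0.92 and -0.83 with each pair left out. Level of the stretch turned to 0.11 with medians and 0.08 with the lower row in mock libraries (-0.15 to 0.03), and to -0.46 per 1000000 gene counts and -0.05 with medians in CMC libraries (-0.05 to 0.10). None of these passed the test except CMC against mock.

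Replicate numbers are shared by the groups, but same-numbered pairs did not deviate together, with correlations across positions of -0.0214 to 0.0191 in fold change. With the replicate block, 0 positions were called in each contrast and the spacer ratio gave 0.03 and -0.01 by genotype and -0.30 by experiment, and no call changed.

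Depth limits the spacer most, where CMC coverage went down to 5 reads.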
